A study of Mus musculus with 4 samples.

Results

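The collagen genes of EO771 cells, a mouse mammary carcinoma line, were compared between cultures given adipose fatty acid binding protein (A-FABP) and control cultures. The members were all genes whose symbol in the platform annotation has the form Col, a number, a, a number, read from probe sets annotated to that gene alone. This gave 44 collagen genes of 22180 genes with such a probe set: 11 fibrillar collagens, 6 type IV (basement membrane) collagens and 27 of other types. The A-FABP group consisted of 2 arrays of cells given recombinant mouse A-FABP at 100 ng/ml, and the control group of 2 arrays of cells given PBS. A-FABP is named in the description field of all 4 samples, but the titles and source names of the PBS arrays give them as controls. All cells were grown in RPMI 1640 for 24 hours, to at least 70% confluence, before treatment, and how long A-FABP was left on the cells was not given in the labels. EO771 is 1 cell line in culture, so no other cell of a tumour was present by design.

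Collagens are secreted or membrane-bound proteins whose chains wind into a helix of repeating glycine triplets. Fibrillar collagens assemble into the fibres of connective tissue, type IV collagens form the sheet of basement membranes, and fibril-associated collagens decorate the fibres. In tumours most fibrillar collagen is made by fibroblasts, while carcinoma cells and endothelium contribute type IV collagen. Many collagens are trimers of different chains, so the genes of partner chains are best read side by side.

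Values are log2 expression values as deposited. The median of all probe sets was 5.98 and 5.95 on the A-FABP arrays and 6.03 on both PBS arrays. The level of a gene was read only against these medians, since probe sets of different genes respond differently. Among the 4 epithelial markers only Krt8 was bright, with an average of 8.79 over the 4 arrays. Cdh1 (6.29), Krt18 (6.01) and Epcam (4.79) lay near or below the medians. Of the fibroblast markers, Pdgfra averaged 11.20 and Pdgfrb 9.81, while Fap (4.94) and Lum (4.58) lay below the medians. The summed linear signal of the 6 fibroblast markers was 3487 and 3506 with A-FABP, against 3488 and 3309 with PBS. Most of that sum came from Pdgfra and Pdgfrb. Taken singly, 2 of the 6 were lower with A-FABP and 4 higher, with log2 differences from -0.40 (Thy1) to 0.23 (Dcn). The 4 leukocyte markers, Ptprc among them at an average of 4.22, were all dim and summed to 119 and 102 with A-FABP, against 142 on either PBS array. The log2 difference (A-FABP minus PBS) of all 4 leukocyte markers was below 0, and 2 of them, Itgam (-0.34) and Ptprc (-0.45), had an unadjusted p under 0.05. Over all genes 52.4% were below 0, and 8.24% had such a p with a lower value. Among genes with means below 6, where all 4 lie, these shares were 70.2% and 13.0%. The 4 endothelial markers summed to 232 and 276 with A-FABP, against 254 and 260 with PBS, and the 4 epithelial markers to 596 and 620 with A-FABP, against 634 and 610 with PBS. Most of the epithelial sum came from Krt8. Of the 4 epithelial markers, 3 lay below 0 and 1 above, from -0.27 (Epcam) to 0.02 (Krt8). The part of these markers in the collagen results was not tested.

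No collagen gene passed the adjusted threshold, and what follows describes values rather than called changes. The lowest limma adjusted p among the 44 genes was 0.296, and 0 of 44 passed an adjusted p under 0.05, as did 0.00% of all genes. Without adjustment, 10 of the 44 had a limma p under 0.05 with a lower value under A-FABP and 0 with a higher value. Among all 22180 genes these shares were 8.24% lower and 4.81% higher, and the balance depended on the scaling: 4.72% were lower and 8.17% higher after each array's median was subtracted, when 7 collagens were lower and 1 higher. The count of 10 was 4 without A-FABP replicate 2 (4.39% of all genes were then lower), 4 without PBS control replicate 1 (4.31%), 2 without PBS control replicate 2 (3.48%) and 5 with the replicate number as a block (6.60%). Where an array is left out, its group has 1 array, which is assumed to vary like the other group. In 28 collagen genes the 2 A-FABP arrays were the lower pair without overlap, and in 3 the higher pair. Over all genes these shares were 27.5% and 26.0%.

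Most collagen differences pointed down. In RNA of whole cultures, fewer cells of a kind and less RNA per cell cannot be told apart. Below 0 were 37 of the 44 genes, and 7 were above, where 52.4% of all genes were below. After each array's median was subtracted, 29 were below and 15 above, where 39.4% of all genes were below. The median log2 difference was -0.18 and its quartiles were -0.29 and -0.04. Over all genes the median was -0.01 and the quartiles were -0.16 and 0.10. The collagen median was -0.12 after each array's median was subtracted (0.05 over all genes), since this adds 0.07 to the difference of every gene alike. It was -0.10 after cyclic loess (-0.0050 over all genes), -0.095 with the trend on level removed (-0.0030), -0.12 without A-FABP replicate 2 (-0.0080) and -0.064 over the 30 collagens at or above the median level (0.04). A-FABP replicate 2 held the lowest of the 4 values in 29 of the 44 collagen genes (65.9%), and in 29.8% of all genes.

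**Figure D1:**
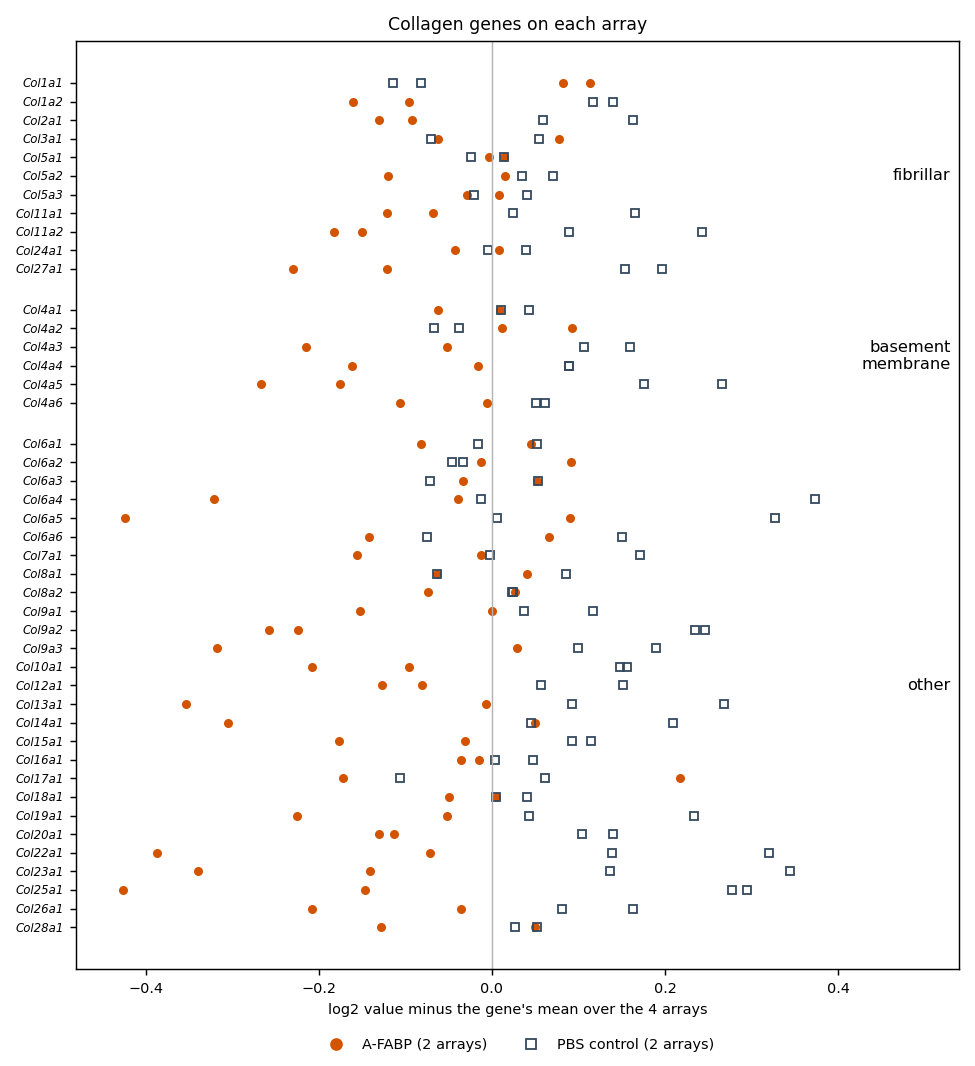
Each row is a collagen gene, and the x axis is its log2 value on an array minus its mean over the 4 arrays. Filled circles are the 2 A-FABP arrays and open squares the 2 PBS arrays. In 28 of the 44 rows both circles lie left of both squares, and in 3 (Col1a1, Col4a2 and Col6a2) right of them.

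Fibrillar collagens held Col1a1, which had the highest difference of the 44 genes. Their 11 genes had a median difference of -0.11, with 8 below 0 and 3 above, where 52.4% of all genes were below. Of the 11, 3 (Col1a2, Col11a2 and Col27a1) had an unadjusted p under 0.05 with a lower value, where 8.24% of all genes did. For Col1a2 this held in 1 of the 12 settings that fitted it, the values as deposited, for Col11a2 in 8 of 13 and for Col27a1 in 10 of 13. Col1a1, the major chain of the type I collagen of bone and skin, had 6.89 and 6.86 with A-FABP, against 6.66 and 6.69 with PBS. Both A-FABP arrays were higher. The difference was 0.20 ± 0.08 (SE, 2 arrays per group; 95% CI -0.02 to 0.41), with a limma adjusted p of 0.352.

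Its partner chain pointed the other way. Col1a2 had 5.60 and 5.67 with A-FABP, against 5.88 and 5.91 with PBS, so both A-FABP arrays were lower (-0.26 ± 0.08 SE, limma adjusted p = 0.308). These levels lie just below the array medians. A dimmer Col1a2 probe set had 4.34 and 4.32 with A-FABP, against 4.26 and 4.07 with PBS, a difference of 0.17 ± 0.10 SE in the opposite direction. The log2 ratio of Col1a1 to Col1a2 was 1.29 and 1.19 with A-FABP, against 0.78 and 0.79 with PBS. That ratio was higher on both A-FABP arrays, a change of 0.45. The change was 0.24 with the mean of the probe sets, and 0.03 with the dimmer Col1a2 probe set, a comparison chosen after seeing the data, where the groups overlapped. With 2 arrays against 2 the exact permutation test of the change of 0.45 gave its smallest possible two-sided p of 0.33. Col1a2 itself lay at -0.044 as the mean of its probe sets.

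The 3 fibrillar genes with a mean of 8 or above, Col3a1, Col5a1 and Col5a3, had differences near 0. Col3a1, which forms type III collagen of soft tissues, had 9.72 and 9.58 with A-FABP, against 9.58 and 9.70 with PBS. The groups overlapped (0.02, 95% CI -0.27 to 0.30), and the sign turned under 3 of the scalings and with some arrays left out. Col5a1, a chain of type V collagen that starts fibrils, had 8.62 and 8.64 with A-FABP, against 8.64 and 8.60 with PBS (0.01, 95% CI -0.21 to 0.23). That sign turned under the same 3 scalings and without PBS control replicate 2. Its second, dimmer probe set had 6.01 and 5.63 with A-FABP, against 6.14 and 6.41 with PBS, a difference of -0.46 ± 0.18 SE with an interval that includes 0. The partner chain Col5a2 had 6.12 and 5.98 with A-FABP, against 6.17 and 6.14 with PBS (-0.11, 95% CI -0.36 to 0.15). Col5a3, the third chain, lay at -0.02.

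Col27a1 and Col11a2 were the fibrillar genes with the lowest differences. Col27a1, a fibrillar collagen of developing cartilage, had 6.98 and 6.87 with A-FABP, against 7.25 and 7.30 with PBS. It had the lowest difference of its class, -0.35 ± 0.09 SE (limma adjusted p = 0.296), with groups that did not overlap. Col11a2, a chain of the type XI collagen of cartilage fibrils, had 6.13 and 6.09 with A-FABP, against 6.36 and 6.52 with PBS (-0.33 ± 0.09 SE, limma adjusted p = 0.302). Its partner Col11a1 lay at -0.19 and Col2a1, the main collagen of cartilage, at -0.22, both with intervals that include 0. Col2a1 had an unadjusted limma p under 0.05 with a lower value after repeated quantile normalization, cyclic loess or removal of the trend on level. The same held with a filter on low values and with trend and robust settings. From 4.54% to 6.90% of all genes were lower at such a p in these settings. Col24a1 lay at -0.04.

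Among the type IV genes, the main pair Col4a1 and Col4a2 differed little, while Col4a5 lay lower. The 6 genes had a median of -0.15, with 5 below 0. In all 6 the groups did not overlap, 5 with the A-FABP arrays lower and 1 (Col4a2) higher, and 1 had an unadjusted p under 0.05. Over all genes the A-FABP arrays were the lower pair in 27.5% and the higher in 26.0%, and 8.24% were lower at such a p. Among genes with means below 6, where 3 of the 6 lie, they were the lower pair in 36.5%. At means of 8 or above, where Col4a1 and Col4a2 lie, they were the lower pair in 12.7% and the higher in 47.9%. Col4a1 had 9.21 and 9.14 with A-FABP, against 9.25 and 9.21 with PBS, and lay at -0.05 (95% CI -0.28 to 0.17). The nearest arrays of the groups had almost the same value, and the difference is smaller than the 0.07 that subtracting each array's median adds to every gene (0.01 after it). Col4a2 had 8.67 and 8.59 with A-FABP, against 8.51 and 8.54 with PBS, and lay at 0.10 (95% CI -0.13 to 0.33).

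Col4a1 and Col4a2 lie head to head on mouse chromosome 8 with overlapping promoter windows, shown here because these chains assemble with each other into the most widespread type IV collagen. In the RefSeq promoter table (GRCm38.p6) their starts are 21 bases apart, and 78 bases belong to the promoter windows of both. The shared bases are printed with the 6 bases before them, which make the first motif whole, 5′ to 3′ on the plus strand, that of Col4a2, from chr8:11312771-11312854. Capitals mark a CCAAT box, of which only the last base is shared, and a GC box (GGGCGG) within the shared bases.
Col4a1-Col4a2: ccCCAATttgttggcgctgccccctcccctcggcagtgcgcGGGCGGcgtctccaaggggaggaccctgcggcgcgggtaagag
The log2 ratio of Col4a1 to Col4a2 was 0.54 and 0.55 with A-FABP, against 0.73 and 0.67 with PBS. It was lower on both A-FABP arrays, by a change of -0.16 (exact permutation p = 0.33, the smallest that 2 against 2 allows).

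Col4a5, a chain of the mature kidney glomerular membrane and of epithelial basement membranes, had 5.76 and 5.85 with A-FABP, against 6.29 and 6.21 with PBS. Both A-FABP arrays were lower, by 1.36-fold (-0.44 ± 0.09 SE, 95% CI -0.69 to -0.19, limma adjusted p = 0.296). Its values lay just below the array medians with A-FABP and just above them with PBS. The unadjusted p was 0.00803, and it was under 0.05 in all 13 settings run, 4 of which leave 1 array in a group. Its neighbour on the X chromosome, Col4a6, lies head to head with it at 1343 bases between the starts. Col4a6 had 5.57 and 5.47 with A-FABP, against 5.63 and 5.64 with PBS (-0.11, 95% CI -0.35 to 0.12), and removing the trend on level or cyclic loess turned the sign. The third pair, Col4a3 and Col4a4, are chains that join Col4a5 in the glomerular membrane. Col4a3 had 5.67 and 5.50 with A-FABP, against 5.82 and 5.88 with PBS (-0.27, 95% CI -0.54 to 0.01). Col4a4 had 5.66 and 5.81 with A-FABP, against 5.91 in both controls (-0.18, 95% CI -0.44 to 0.08). The values of Col4a3, Col4a4 and Col4a6 all lie below the array medians, a range in which lower values were common among all genes. Of all genes with means below 6, 70.2% were below 0.

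**Figure D2:**
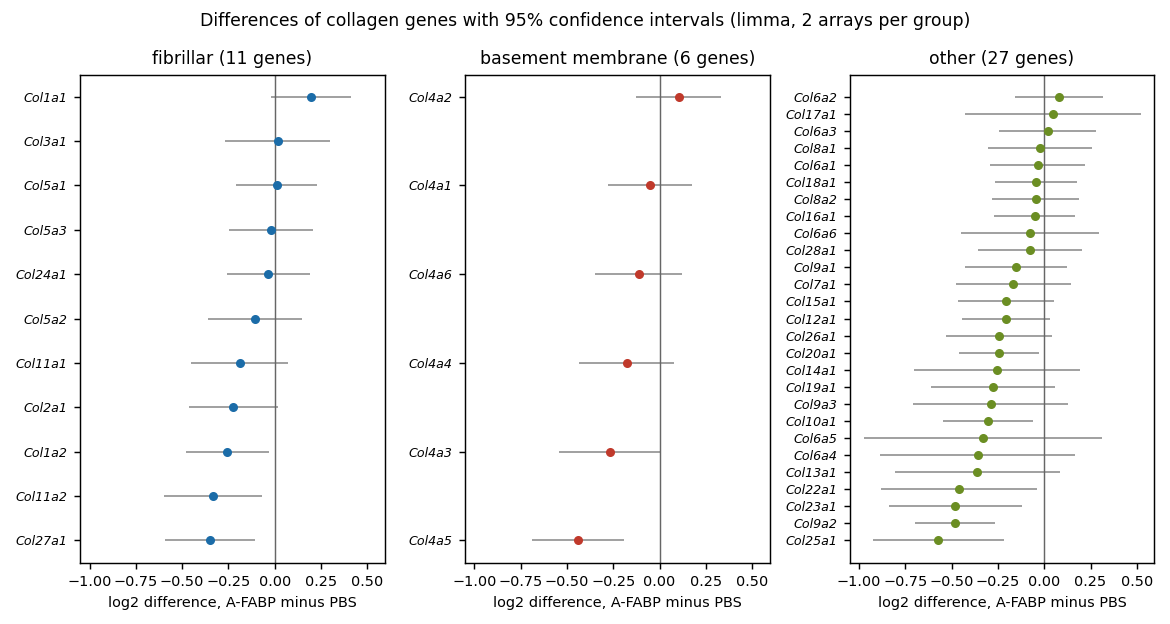
Points are log2 differences (A-FABP minus PBS) and bars their 95% confidence intervals from limma, with 2 arrays per group, for fibrillar, type IV and other collagens. Intervals that lie wholly below 0 belong to 3 fibrillar, 1 type IV and 6 other genes, and no interval lies wholly above 0.

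The 27 other collagens had the lowest median, -0.21, with 24 genes below 0 and 3 above, and 6 with an unadjusted p under 0.05. All 9 fibril-associated collagens lay below 0, with a median of -0.26, and in 8 the A-FABP arrays were the lower pair without overlap. Over all genes 52.4% were below 0, 27.5% were the lower pair without overlap and 8.24% were lower at such a p. Among genes with means below 6 these shares were 70.2%, 36.5% and 13.0%. At means of 8 or above they were 27.4%, 12.7% and 1.06%. Col9a2 led the fibril-associated collagens. This chain of type IX collagen, which coats the fibrils of cartilage, had 7.99 and 7.95 with A-FABP, against 8.46 and 8.44 with PBS. Replicates lay close together, and the gap between the groups was many times wider than the gap between replicates. It was 1.40-fold lower (-0.48 ± 0.08 SE, 95% CI -0.70 to -0.27), with the lowest unadjusted p among the 44 genes (0.00361, limma adjusted p = 0.296). That p was under 0.05 in all 13 settings run, the 4 with 1 array in a group included, with differences from -0.55 to -0.42.

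The other chains of type IX collagen also lay lower, by less. Col9a1 had 5.92 and 5.77 with A-FABP, against 6.04 and 5.96 with PBS (-0.15, 95% CI -0.43 to 0.12). Col9a3 had 6.57 and 6.22 with A-FABP, against 6.64 and 6.73 with PBS (-0.29, 95% CI -0.71 to 0.13). Both intervals include 0, and in both genes A-FABP replicate 2 was the lowest array. Col22a1, a collagen of tissue junctions, had 6.15 and 5.83 with A-FABP, against 6.36 and 6.54 with PBS (-0.46 ± 0.15 SE). Its difference was -0.30 without A-FABP replicate 2. Col20a1 had 6.61 and 6.59 with A-FABP, against 6.83 and 6.86 with PBS (-0.24 ± 0.08 SE). The unadjusted p was under 0.05 in 7 of 13 settings for Col22a1 and in 5 of 13 for Col20a1. Of the remaining fibril-associated genes, Col12a1, Col14a1 and Col19a1 lay between -0.28 and -0.21, and Col16a1 at -0.05.

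Membrane-spanning collagens held the lowest difference of all. Col25a1, a transmembrane collagen known from neurons, had 6.16 and 5.88 with A-FABP, against 6.60 and 6.58 with PBS. Both A-FABP arrays lay lower, by 1.49-fold (-0.57 ± 0.13 SE, 95% CI -0.92 to -0.22, limma adjusted p = 0.296), and the difference was -0.43 without A-FABP replicate 2. Col23a1, a transmembrane collagen of epithelia, had 6.98 and 6.79 with A-FABP, against 7.26 and 7.47 with PBS (-0.48 ± 0.13 SE, limma adjusted p = 0.296). Col13a1, found at cell junctions, lay at -0.36 (95% CI -0.80 to 0.08). Col17a1, the hemidesmosome collagen of basal epithelial cells, overlapped between the groups: it had 5.87 and 6.26 with A-FABP, against 6.10 and 5.94 with PBS (0.04, 95% CI -0.43 to 0.52).

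The promoter windows of Col9a2 and Col25a1 are shown because these genes had the lowest unadjusted p and the lowest difference. Each runs from 250 bases before to 50 bases after the start (RefSeq, GRCm38.p6), 5′ to 3′ on the plus strand, from chr4:121039316-121039615 and chr3:130180595-130180894. Capitals mark the CCAAT box, the GC box (GGGCGG) and the TATA box (TATAAA), each on either strand.
Col9a2: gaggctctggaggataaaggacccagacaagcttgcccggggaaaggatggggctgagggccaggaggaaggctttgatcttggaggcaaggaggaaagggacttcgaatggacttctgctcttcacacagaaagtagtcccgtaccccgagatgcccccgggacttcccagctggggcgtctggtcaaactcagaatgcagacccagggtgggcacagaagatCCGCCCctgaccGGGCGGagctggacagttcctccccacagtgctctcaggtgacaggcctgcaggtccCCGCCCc
Col25a1: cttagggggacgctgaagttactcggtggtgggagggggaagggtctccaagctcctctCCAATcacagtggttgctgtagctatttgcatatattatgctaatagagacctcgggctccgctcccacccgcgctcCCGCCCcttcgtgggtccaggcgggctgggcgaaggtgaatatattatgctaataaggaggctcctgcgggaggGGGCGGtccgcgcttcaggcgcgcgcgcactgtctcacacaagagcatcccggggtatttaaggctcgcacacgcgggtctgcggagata
Both windows hold a GC box, only that of Col25a1 holds a CCAAT box, and neither holds a TATA box. The table has 38 windows of this length for 35 of the 44 genes. The GC box, searched on both strands and with overlaps between motifs allowed, lay in 23 of the 38 (60.5%) and in 35.7% of all 32851 promoter windows. The CCAAT box lay in 13 (34.2%), against 37.4% of all windows, and the TATA box in 5 (13.2%), against 13.6%. These matches describe letters only.

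The main chains of type VI collagen, which forms beaded filaments around cells, lay close to 0. Col6a1 had 12.28 and 12.16 with A-FABP, against 12.22 and 12.29 with PBS (-0.04, 95% CI -0.29 to 0.22), and its second probe set also lay at -0.04. A further probe set annotated to Col6a1 and other genes together was not used. Col6a2, the next gene on chromosome 10, had 9.78 and 9.68 with A-FABP, against 9.66 and 9.64 with PBS (0.08, 95% CI -0.16 to 0.32). Col6a3 had 7.09 and 7.17 with A-FABP, against 7.17 and 7.05 with PBS (0.02, 95% CI -0.24 to 0.28). The signs of Col6a1 and Col6a3 turned under other scalings or with an array left out. The alternative chains Col6a4, Col6a5 and Col6a6, neighbours on chromosome 9, lay at -0.36, -0.33 and -0.08 with wide intervals that all include 0.

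Of the collagens that join basement membranes to their surroundings, Col18a1 had 9.99 and 9.94 with A-FABP, against 10.03 and 9.99 with PBS (-0.05, 95% CI -0.27 to 0.18), and 0.02 after each array's median was subtracted. Col18a1 is the source of the angiogenesis inhibitor endostatin. Its relative Col15a1 lay at -0.21, and Col7a1, the anchoring fibril collagen of skin, at -0.17, both with intervals that include 0. Among the network-forming collagens, Col10a1, a marker of hypertrophic cartilage, had 5.12 and 5.23 with A-FABP, against 5.49 and 5.48 with PBS (-0.30 ± 0.09 SE), with an unadjusted p under 0.05 in 4 of the 12 settings that fitted it. Col8a1 and Col8a2, chains of the collagen under vascular and corneal endothelium, lay at -0.02 and -0.05. Col26a1 and Col28a1 lay at -0.24 and -0.08.

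Over all genes the median difference was lower the dimmer the range, whereas the collagen medians were alike in the 2 ranges below 8 and nearer to 0 above it. The ranges were chosen after the values were seen. Of the 9 collagens with a mean of 8 or above, 8 lay between -0.05 and 0.10, and Col9a2 was the exception. Their median was -0.02, against 0.06 for the 6967 genes of that range. Of the 9, 1 (11.1%) had an unadjusted p under 0.05 with a lower value, where 1.06% of all genes in the range did. Between 6 and 8, the 21 collagens had a median of -0.22, against -0.01 for 5542 genes. Of the 21, 7 (33.3%) had an unadjusted p under 0.05 with a lower value, where 8.97% of genes did. Below 6, all 14 collagens lay below 0, with a median of -0.23, against -0.11 for 9671 genes, and 2 (14.3%) had such a p, where 13.0% did.

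**Figure D3:**
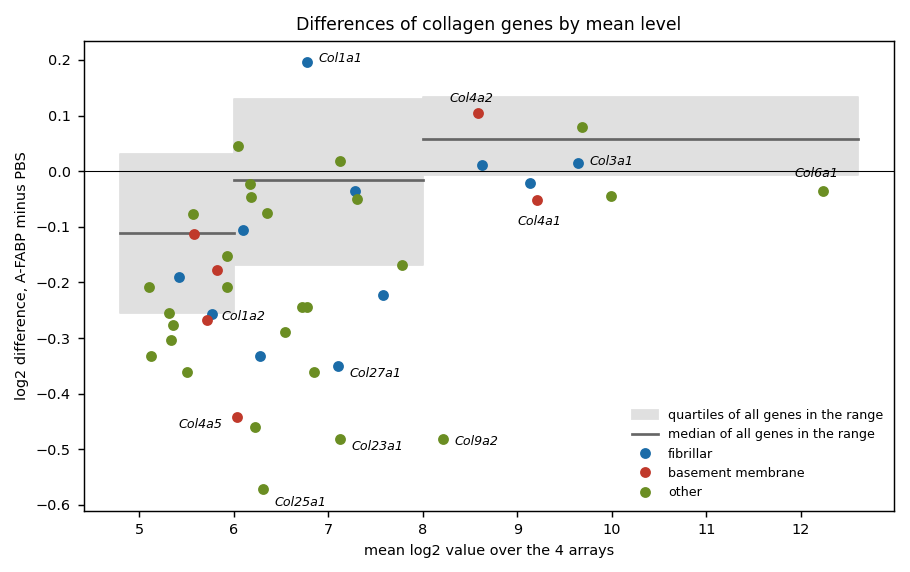
Each point is a collagen gene, with its mean log2 value over the 4 arrays on the x axis and its log2 difference (A-FABP minus PBS) on the y axis. Grey bands and lines are the quartiles and medians of all genes with means below 6, from 6 to 8, and 8 or above. Col9a2 lies at -0.48 apart from the other 8 collagens of the top range.

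The classes differed in how many of their genes were bright. Means of 8 or above were found in 3 of 11 fibrillar, 2 of 6 type IV and 4 of 27 other collagens. Within that range the medians were 0.01, 0.03 and -0.04. Between 6 and 8 they were -0.16 (6 fibrillar genes), -0.44 (Col4a5 alone) and -0.21 (14 other genes). Below 6 they were -0.22 (2 genes), -0.18 (3 genes) and -0.26 (9 genes). The ranges of the 3 classes overlapped, from -0.35 to 0.20 for fibrillar, -0.44 to 0.10 for type IV and -0.57 to 0.08 for other collagens. The difference between the classes was not tested.

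Genes that make, process, bind or cut collagen were spread around 0, but most of these lists were brighter than the collagens. Median levels were 10.15 for biosynthesis, 8.03 for processing, 7.17 for receptors and 6.28 for proteases, against 6.33 for collagens. Over all genes the median difference was 0.06 at means of 8 or above and -0.11 below 6. The part of level in this contrast was not tested. At an unadjusted p under 0.05, 8.24% of all genes were lower and 4.81% higher. Of 16 measured genes of collagen biosynthesis and folding, 10 lay above 0 and 6 below (median 0.02), and 0 had an unadjusted p under 0.05. P3h2, a prolyl 3-hydroxylase, had the lowest p of them, at 5.90 and 6.11 with A-FABP, against 5.81 and 5.67 with PBS (0.26 ± 0.12 SE). Mia3, which loads procollagen into transport vesicles, lay at 0.18 ± 0.09 SE. Of 10 processing and cross-linking genes, 6 lay below 0 and 4 above (median -0.06). Adamts3, a procollagen N-propeptidase, had 6.12 and 6.02 with A-FABP, against 5.73 and 5.61 with PBS (0.40 ± 0.09 SE). Tll1, a procollagen C-propeptidase, had 5.80 and 5.73 with A-FABP, against 6.04 and 6.11 with PBS (-0.31 ± 0.08 SE). These were the only processing genes with an unadjusted p under 0.05, and they pointed in opposite directions (limma adjusted p = 0.296 for each).

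Collagen receptors had a median of 0.02 over 8 genes. Mrc2, an endocytic receptor that takes up collagen fragments, had 6.12 and 6.01 with A-FABP, against 6.43 and 6.44 with PBS (-0.37 ± 0.09 SE). Itga1, the integrin chain that prefers type IV collagen, had 9.05 and 9.07 with A-FABP, against 8.83 and 8.80 with PBS (0.24 ± 0.08 SE). In both genes the groups did not overlap, and the limma adjusted p was 0.296 for Mrc2 and 0.312 for Itga1. Of the 8 receptors, 3 had the A-FABP arrays as the lower pair without overlap and 2 as the higher. Over all genes these shares were 27.5% and 26.0%. At means of 8 or above, where Itga1 lies, the A-FABP arrays were the higher pair in 47.9%. Of 6 collagen-degrading proteases (median 0.03), only Mmp13, an interstitial collagenase, had an unadjusted p under 0.05, at 6.17 and 6.44 with A-FABP, against 5.87 and 5.94 with PBS (0.39 ± 0.13 SE). Mmp14, the membrane-bound protease, was bright at 11.30 and 11.29 with A-FABP, against 11.23 and 11.21 with PBS (0.08 ± 0.08 SE).

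Most other basement membrane genes lay slightly below 0. Of 14 measured laminin, nidogen, perlecan and agrin genes, 11 lay below 0 and 3 above, with a median of -0.04. Of the 14, 2 (14.3%) had an unadjusted p under 0.05, both with a lower value. Over all genes 52.4% were below 0 and 8.24% were lower at such a p. These shares were 70.2% and 13.0% among genes with means below 6, and 52.7% and 8.97% from 6 to 8. At means of 8 or above they were 27.4% and 1.06%. The means of the 14 genes ran from 4.74 to 12.10, with a median of 7.33. Lama4, a laminin chain of vessels and fat, had 4.34 and 4.61 with A-FABP, against 4.97 and 5.04 with PBS (-0.53 ± 0.12 SE). Lamc3 had 6.15 and 5.86 with A-FABP, against 6.34 and 6.45 with PBS (-0.39 ± 0.13 SE). Both are dim or near the array medians, and the limma adjusted p was 0.296 and 0.325.

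**Figure D4:**
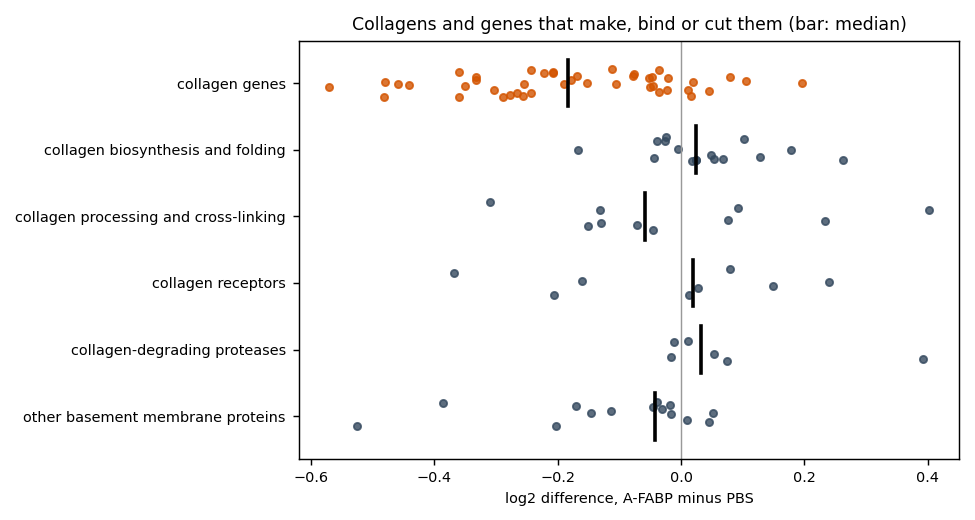
Each point is a gene, the x axis its log2 difference (A-FABP minus PBS), and the black bar the median of its list. The collagen genes have a median of -0.18 and the 5 other lists medians from -0.06 to 0.03. Median levels are 6.33 for the collagen genes and from 6.28 to 10.15 for the other lists.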

How the data were processed

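RNA of 4 EO771 cultures, 2 with A-FABP and 2 with PBS, was measured on single-colour arrays, and groups were taken from the sample titles. The authors deposited 1 log2 value per probe set and array. The submitters' processing notes name RMA, a background, normalization and probe-summary method, as well as Partek 6.6. The order of these steps, the array's probe set definition and the authors' genome build were not stated in the labels. RMA compresses differences near the background. No detection flags or probe intensities were used, and no gene was called detected or absent. Precision is limited by having 2 arrays per group.

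Probe sets were named from the platform annotation, and 1 probe set per gene (the highest mean over the 4 arrays) stood for the gene. Differences are A-FABP minus PBS control, fitted with limma 3.58.1 (lmFit and eBayes, R 4.3.3) on the whole table of 41345 probe sets (two-sided p, Benjamini-Hochberg adjustment). The fit was tested on simulated data. The members, the companion gene lists and the tests were chosen with earlier results of these data known, and the level ranges after the values were seen. The text gives in full 15 collagen genes fixed in the plan, those with an unadjusted p under 0.05, the highest and lowest difference of each class, and up to 3 members of each companion list. No set test was run. Other scalings, a filter on low values, trend and robust settings, a replicate block, each array left out and another probe set rule were the alternatives. Nothing says that the 2 cultures of a group were independent beyond their titles, so p-values measure the spread between these arrays. That spread is not the gene's own alone. The eBayes step combined each probe set's variance (2 degrees of freedom) with a value shared by all probe sets (1.91 degrees of freedom).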

Additional observations from a re-analysis of the deposited data

How the results depend on the processing

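No collagen gene passed the adjusted threshold under any of the 12 alternatives. The count of collagen genes lower at an unadjusted p under 0.05, 10 as deposited, was 6 with the trend on level removed (5 of the 10, and Col2a1), 5 with the replicate block (all among the 10), and 2 to 9 with an array left out. The 9, without A-FABP replicate 1, held 6 of the 10. With an array left out, the lone array of its group is assumed to vary like the other group. Higher were 0 as deposited, where 4.81% of all genes were, and 1 (Col1a1) after median subtraction, cyclic loess, trend removal or the filter on level. In these 4 settings 8.17%, 4.41%, 4.42% and 11.5% of all genes were higher. The correlation of same-numbered arrays' deviations was -0.00889, so the numbers were not taken as pairs. Fibrillar medians, -0.11 as deposited, were -0.040 after median subtraction, -0.070 after cyclic loess and with the trend removed, -0.035 with the filter (9 genes), and -0.173 to -0.061 with an array left out. Type IV medians, -0.15 as deposited, were -0.080, -0.093, -0.089 and -0.052 (3 genes) under the same settings and -0.11 after repeated quantile normalization. Other collagens, -0.21 as deposited, had -0.12 with the filter (18 genes), -0.14 after cyclic loess and with the trend removed, and -0.255 to -0.135 with an array left out. Without A-FABP replicate 1 the fibrillar median (-0.173) lay below that of type IV (-0.134). Over all genes, more were higher than lower at an unadjusted p under 0.05 after median subtraction (8.17% and 4.72%), with trend and robust settings (8.52% and 6.42%) and with the filter (11.5% and 6.90%). Of 23 genes tracked, 16 kept their sign throughout. The 23 include the 10 chosen for an unadjusted p under 0.05 in these same arrays, so the count is no independent check. Col1a2 is among the 16, though its dimmer probe set alone lay at 0.17. Under quantile normalization, cyclic loess and trend removal, Col3a1 turned to -0.034, -0.042 and -0.041, and Col5a1 to -0.068, -0.056 and -0.060. As the mean of its probe sets Col5a1 lay at -0.22. Col6a3 turned to -0.015 under quantile normalization, and Col4a6 to 0.0054 under cyclic loess and 0.0084 with the trend removed. Median subtraction, which adds 0.065 to every gene and so turns any difference between -0.065 and 0, put Col4a1 at 0.013, Col6a1 at 0.029 and Col18a1 at 0.020. With an array left out, Col3a1 ran from -0.054 to 0.085, Col5a1 from -0.0084 to 0.029, Col6a1 from -0.100 to 0.027 and Col6a3 from -0.044 to 0.081. The cause of the other turns was not tested.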
